A study of Mus musculus with 8 samples.

Results

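The genes described here are the nuclear receptor Ppara, its coactivator Ppargc1a, and 3 metabolic genes, Pck1, Apob and Slc2a5. They carried 7 of the 195 peaks of N6-methyladenosine (m6A), on 5 of the 168 genes, in the authors' deposited table of m6A peaks that differed between Mettl14 knockout and control colonic epithelial cells. Members were taken as every row of that table whose gene name was one of the 5. They were thus chosen by the authors' FDR for the genotype difference, which put a peak in the table, and by their shared theme among listed genes, so their values are given as a description with no test. m6A is a methyl group on adenosines of mRNA. It is placed by a complex of Mettl3 and Mettl14, and it is measured here as RNA pulled down by an m6A antibody over unenriched RNA, the input.

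The 8 samples came from the colon of untreated C57BL/6 mice at postnatal week 6. Knockout mice (Mettl14 f/f; CDX-cre) gave 3 immunoprecipitates and 1 input, and control mice (Mettl14 f/f, with floxed alleles and no Cre) gave 3 immunoprecipitates and 1 input. The labels name the transgene only as CDX-cre and do not say whether replicates were separate animals. The table holds 1 value per peak and no value of a sample, so the level in each library, the depth and the spread between replicates are unknown. With 1 input per genotype, a difference in m6A and a difference in the amount of RNA cannot be told apart. The table does not state which genotype is on top of its log2 fold change. A negative value likely means less signal in the knockout than in the control, if the knockout was entered as the treated arm. The layout of the columns is that of a program that puts the treated arm on top. Which genotype was entered as that arm is not stated. If the ratio was taken the other way, every negative value below means more signal in the knockout.

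Ppara is a receptor that is activated by fatty acids and their derivatives and that switches on genes of fatty acid oxidation and ketone body formation. Ppargc1a docks on this and other nuclear receptors and raises the transcription of genes of mitochondrial metabolism and, in the fasted liver, of gluconeogenesis. Pck1 encodes the cytosolic phosphoenolpyruvate carboxykinase, which commits oxaloacetate to glucose synthesis. Apob encodes the structural protein of chylomicrons and other triglyceride-rich lipoproteins, and Slc2a5 the fructose transporter of the intestinal brush border.

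All 7 peaks of the 5 genes had a negative log2 fold change in the authors' deposited table, where 38.5% of the listed peaks and 35.1% of the listed genes were negative. Because the genes were chosen with these values in view, the uniform sign describes the choice and is not a result about the pathway. Of the 7 values, 4 were close together, 1 was smaller and 2 were larger. Between -1.26 and -1.23 lay 4 peaks from 4 of the genes, namely Apob at -1.26, a Ppargc1a peak at -1.24, a Ppara peak at -1.23 and Pck1 at -1.23. These are differences of 2.35-fold to 2.39-fold. The second Ppargc1a peak was smaller, at -1.01 (2.01-fold). The second Ppara peak was larger, at -2.13 (4.38-fold). Slc2a5 stood far below the others at -3.51 (11.4-fold) and was the second lowest of the 195 peaks. The median of the 7 was -1.24, against -1.48 for the other 68 negative peaks of the table.

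The false discovery rates (FDR) that the authors' deposited table gives for these differences were mostly in the weaker part of the list. They ran between 0.0026 and 0.048, with a median of 0.016 over the 7 peaks, against 0.0059 over the other 188. An FDR of at most 0.01 was reached by 2 of the 7, a Ppargc1a peak and Pck1, while 53.3% of all listed peaks reached it. All 7 log2 fold changes were at or beyond 1 in size, as in 71.3% of the list, and 2 of them, in Slc2a5 and Ppara, were at or beyond 2, as in 25.1% of the list. Size and FDR did not run together: Slc2a5 had the largest difference of the 7 and an FDR of 0.048, rank 192 of 195 counted from the smallest.

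**Figure D1:**
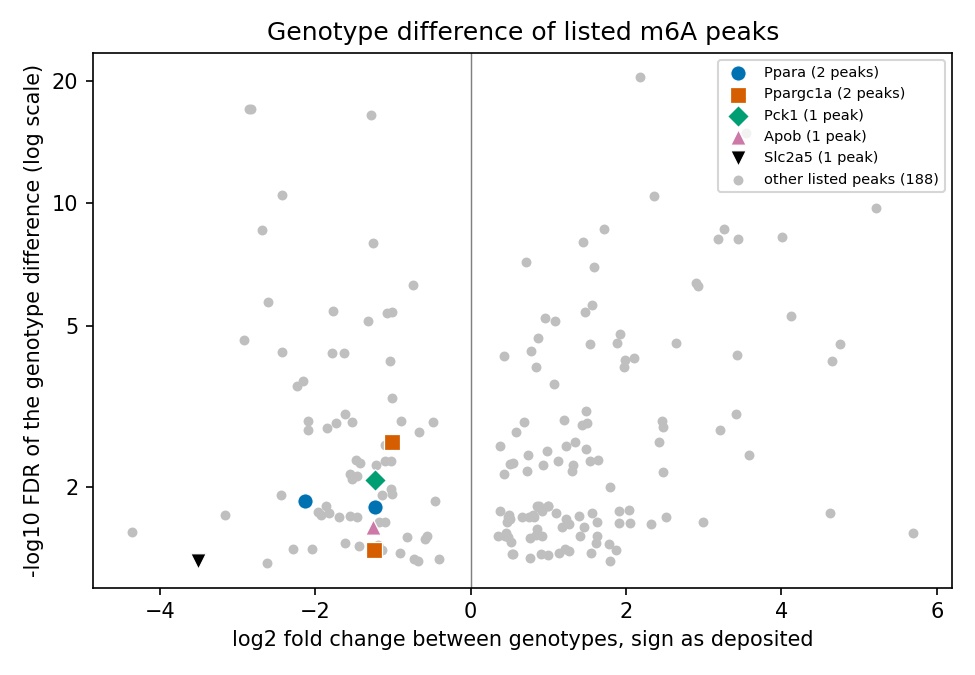
Log2 fold change between genotypes, sign as deposited, on the x axis, and -log10 of the FDR of that difference on a logarithmic y axis, for each peak of the authors' deposited table; coloured symbols are the 7 peaks of the 5 genes and grey points the other 188. All 7 lie left of 0, 4 of them close together between -1.26 and -1.23, and Slc2a5 lies at -3.51 near the bottom of the plot.

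RefSeq start regions of Ppargc1a, Pck1, Apob and Slc2a5 on GRCm38.p6, 250 bases before to 50 bases after the start site, were searched for the core of the cAMP response element. This element binds the transcription factor CREB, through which fasting hormones switch on Pck1 and Ppargc1a in the liver. The half-site TGACG, counted on either strand, occurred in the regions of Ppargc1a and Pck1, not in those of Apob and Slc2a5, and in 20.8% of all 32851 RefSeq start regions. The full element TGACGTCA was in none of these and in 1.79% of all regions. A match is a description of the letters only. No listed peak of these genes overlapped its start region, and the m6A data do not bear on the use of these sites. The search took a single start site per gene. For Ppargc1a the RefSeq gene span reaches far upstream of the one used, and that part was not searched. The stretches below are shown because they place the half-site, in capitals, in the genes of the fasting response. Each is given 5′ to 3′ on the strand of its gene.
Ppargc1a, chr5:51567757-51567786, minus strand: ggtgccctcccaCGTCActgagctccagtg
Pck1, chr2:173152971-173153000, plus strand: gcctgccccttaCGTCAgaggcgagcctcc
The half-site began 49 bases before the start site in Ppargc1a and 90 bases before it in Pck1. In Pck1 it was part of TTACGTCA, which overlaps the half-site and was found in 0.50% of all regions on either strand.

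Of the receptor Ppara, the table lists a pair of peaks late in the gene, which spans 71942 nt on the plus strand of chromosome 15. The first (mm10, 85801093 to 85801573) was a block of 481 nt with its midpoint 92.3% of the way from the 5′ to the 3′ end of the gene. In the authors' deposited table it was enriched 7.86-fold over input, the highest of the 7 peaks, with a log10 p-value of -44.3 for that enrichment. Its log2 fold change between genotypes was -1.23 (FDR 0.016). The second (85802623 to 85802803) lay 1049 nt further along, was 181 nt wide and had its midpoint at 94.2%. It was weaker over input in the authors' deposited table, at 2.80-fold with a log10 p-value of -9.27, and differed more between genotypes, at -2.13 (FDR 0.014). The peaks ended 5278 nt and 4048 nt before the 3′ end of the gene. Thus the wider and more enriched Ppara peak had the smaller genotype difference and its narrow neighbour the larger one, and without an error for either value the gap of 0.90 between them was not tested.

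Of its coactivator Ppargc1a, the table lists peaks farther apart, on the minus strand of chromosome 5. One (51457541 to 51458169) was 629 nt wide, the widest of the 7, with its midpoint at 99.5% of the gene span, and ended 3292 nt before the 3′ end. The authors' deposited table gives it a 3.23-fold enrichment over input (log10 p-value -21.4) and a log2 fold change between genotypes of -1.01, with the smallest FDR of the 7, 0.0026. The other (51473719 to 51474138) was 420 nt wide and lay 15549 nt upstream, with its midpoint at 97.0% and its end 19470 nt before the 3′ end. Its enrichment was higher, 4.43-fold, with a log10 p-value of -15.9, and its log2 fold change was -1.24 (FDR 0.04) in the authors' deposited table. The Ppargc1a values differed by 0.23, less than the 0.90 between the Ppara values. Among the other 16 genes with exactly 2 listed peaks, the log2 fold changes of the pair differed by 0.03 to 1.68, with a median of 0.51. The gap was wider than that of Ppara in 3 of these genes and narrower than that of Ppargc1a in 3, so both pairs lay inside the range of the table. The larger difference sat on the less enriched peak in Ppara, on the more enriched one in Ppargc1a, and on the less enriched one in 10 of the other 16 genes.

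Pck1, the gluconeogenic enzyme, had a peak at the floor of the table's enrichment. It covered 150 nt of a gene of 6202 nt (chromosome 2, 173158421 to 173158570, plus strand), with its midpoint at 87.4% of the span and its end 704 nt before the 3′ end. In the authors' deposited table its enrichment over input was 1.42-fold, tied with 1 other peak, in Reg3g, as the lowest of the list. Its log10 p-value for enrichment, -3.81, ranked 192 of 195 counted from the strongest. Its genotype difference of -1.23 had the second smallest FDR of the 7, 0.0083.

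Apob, the lipoprotein scaffold, had its peak earliest along the gene of the 7. The block of 570 nt (chromosome 12, 8008732 to 8009301, plus strand) had its midpoint at 80.05% of a gene of 39211 nt and ended 7538 nt before the 3′ end. The authors' deposited table gives an enrichment of 5.18-fold (log10 p-value -22.4) and a log2 fold change between genotypes of -1.26 (FDR 0.025). It was thus a peak of middling width and strength, and its difference was close to those of Pck1, the first Ppara peak and the far Ppargc1a peak. The next listed peak of another gene on chromosome 12, in Sstr1, was 50.2 Mb away.

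Slc2a5, the fructose transporter, had a narrow peak near the end of the gene. It was 179 nt wide (chromosome 4, 150143186 to 150143364, plus strand), with its midpoint at 96.4% of a gene of 24825 nt and its end 804 nt before the 3′ end. In the authors' deposited table its enrichment was 6.30-fold, second of the 7 to the first Ppara peak, but the log10 p-value of that enrichment was only -9.14, rank 166 of 195. Its log2 fold change of -3.51 (FDR 0.048) was exceeded on the negative side only by that of Prlr. The Slc2a5 value is thus the largest of the 7 and the one closest to the threshold of the list.

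All 7 peaks were single blocks, meaning that none was spread over an intron in the deposited coordinates. Single blocks made up 47.7% of all listed peaks and 82.4% of the other 68 negative ones, and 67.7% of the single-block peaks were negative, so the layout of the 7 is the usual one on the negative side of the table. All 7 midpoints lay beyond 80% of the gene span, between 80.05% and 99.5% with a median of 94.2%. The median was 62.6% over the other 188 peaks and 94.0% over the other 56 single-block negative peaks, and 67.9% of those 56 also lay beyond 80%. In nucleotides the 7 were not especially close to the 3′ end. Their ends lay 704 to 19470 nt from it, with a median of 4048 nt, against 2140 nt for the other 188 peaks. Within 1000 nt of the end were 2 of the 7, Pck1 and Slc2a5, against 33.0% of the other peaks. The spans of their genes had a median over the 7 peaks of 71942 nt, against 14850 nt over the other 188. Over the other 56 single-block negative peaks the median was 35080 nt. The median of the 7 counts Ppara and Ppargc1a once for each of their peaks. Counted once per gene, it was the span of Apob, 39211 nt. The RefSeq span of Ppargc1a, 661605 nt, reaches far upstream of the start site in the RefSeq table of start regions. Counted from that start site, over 113477 nt, its midpoints moved to 96.8% (near peak) and 82.7% (far peak). No exon annotation and no sequence over the peaks was used here, so the peaks were not placed in coding sequence or untranslated regions and were not searched for the m6A consensus motif.

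**Figure D2:**
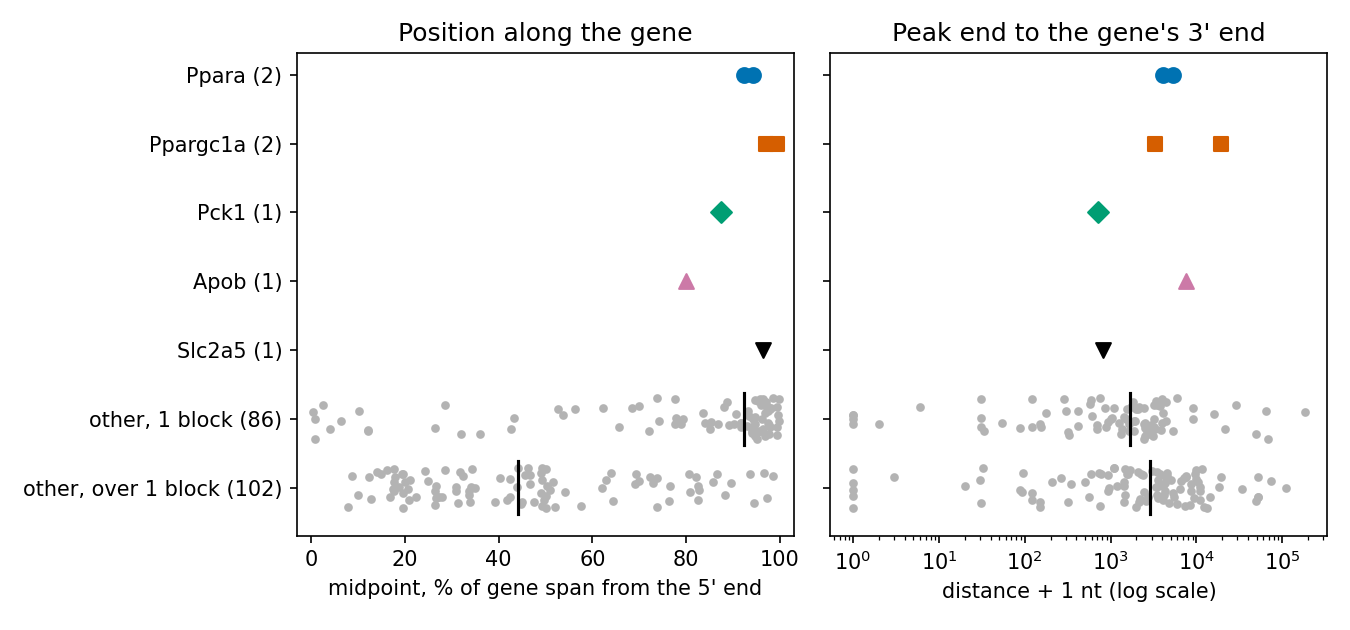
Left, midpoint of each peak as a percentage of the way from the 5′ to the 3′ end of its gene; right, nucleotides between the end of the peak and the 3′ end of its gene, plus 1, on a logarithmic axis. Coloured symbols are the 7 peaks by gene, grey points the other 86 peaks of 1 block and 102 of over 1 block, and black bars their medians; the 7 lie beyond 80% of the span on the left and between 704 and 19470 nt on the right.

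Enrichment over input of the 7 peaks was ordinary for the table. It ran from 1.42-fold to 7.86-fold with a median of 4.43-fold, against 4.47-fold over the other 188 peaks, where it reached 152-fold. Counted from the most enriched of 195, the ranks were 54 for the first Ppara peak, 69 for Slc2a5, 82 for Apob, 98 and 130 for the Ppargc1a peaks, 143 for the second Ppara peak and 194 for Pck1. By the authors' enrichment p-value the 7 stood lower, with a median log10 p-value of -15.9 against -26.9 over the other 188. Over the other single-block negative peaks the median was -19.75, nearer to that of the 7. The change of order was largest for Slc2a5, which dropped from rank 69 to rank 166. Only the first Ppara peak, at rank 51, was above the median of the table by p-value. The narrowest of the 7, Pck1, Slc2a5 and the second Ppara peak, at 150, 179 and 181 nt, were also the 3 with the weakest enrichment p-values. Among the 93 single-block peaks they ranked 3, 6 and 8 from the narrowest. The 2 largest genotype differences, in Slc2a5 and Ppara, were on 2 of these 3 narrow peaks.

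**Figure D3:**
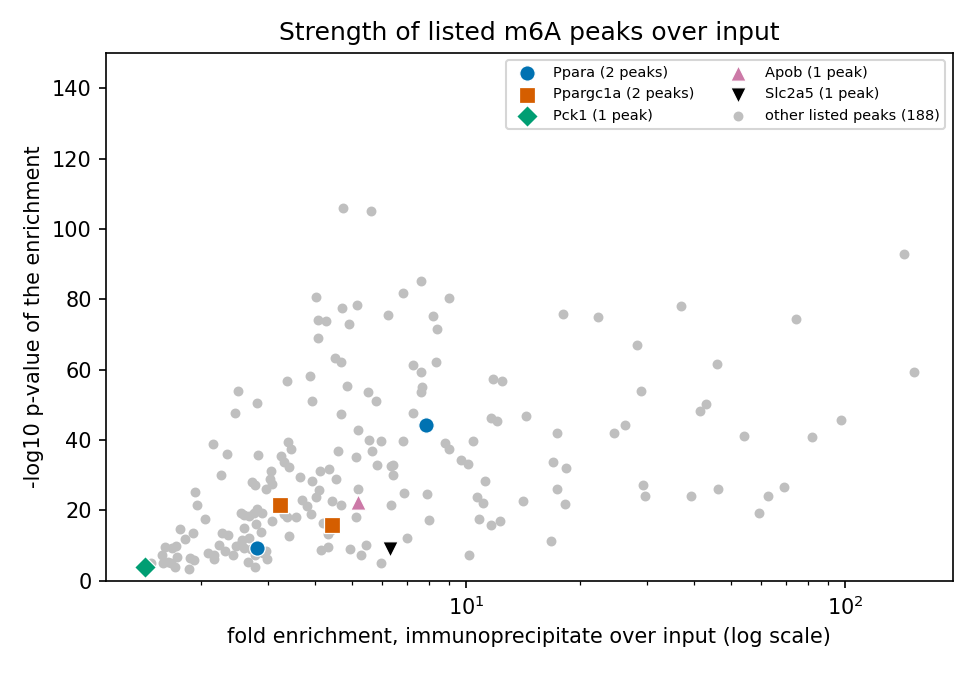
Fold enrichment of immunoprecipitate over input on a logarithmic x axis and -log10 of its p-value on the y axis, both as deposited by the authors, for the 7 peaks (coloured by gene) and the other 188 (grey). The 7 run from Pck1 at 1.42-fold, in the lower left corner, to the first Ppara peak at 7.86-fold; Slc2a5, at 6.30-fold, has a weak p-value for its enrichment.

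**Figure D4:**
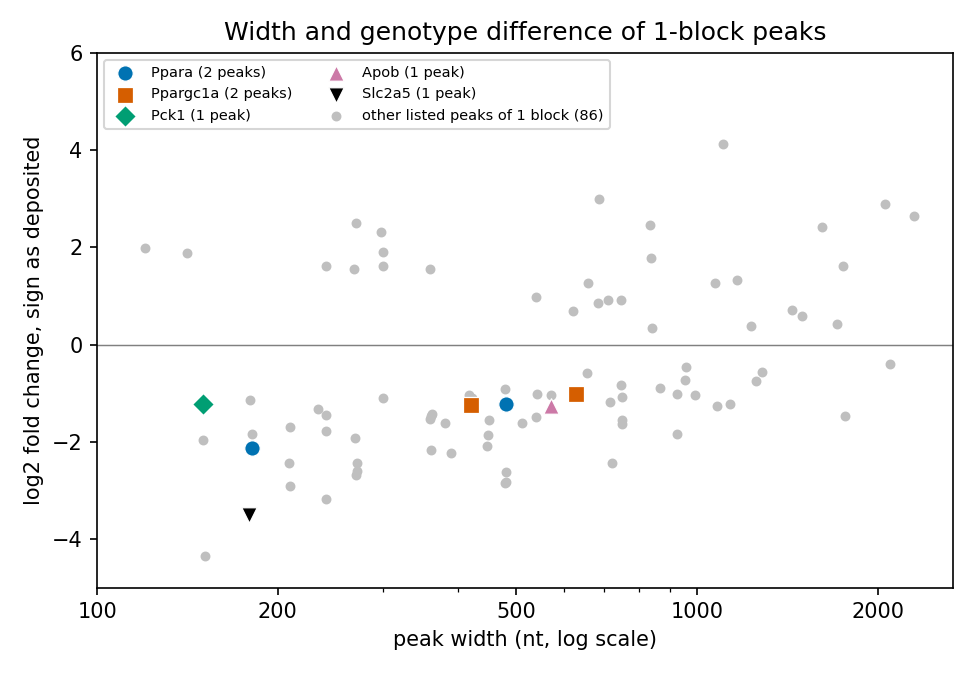
Peak width in nucleotides on a logarithmic x axis and log2 fold change between genotypes, sign as deposited, on the y axis, for the listed peaks of 1 block; coloured symbols are the 7 peaks and grey points the other 86. Slc2a5 at 179 nt and the second Ppara peak at 181 nt have the largest differences of the 7, Pck1 at 150 nt does not, and the wider peaks lie between -1.26 and -1.01.

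Of 97 genes on 4 lists of these pathways, 6 had a listed peak, the 5 genes described here and Apobr. The list of 28 PPAR receptors, partners and coregulators gave Ppara and Ppargc1a alone, and Pparg, Ppard and the Rxr partners were not listed. The 17 gluconeogenesis genes gave Pck1 alone, and the 25 genes of hexose transport and fructose metabolism Slc2a5 alone. The 27 genes of lipoprotein assembly and lipid handling gave Apob and Apobr, a receptor for lipoproteins that carry apolipoprotein B. Apobr had the opposite sign in the authors' deposited table, 4.01 (FDR 5.5e-09), and an enrichment of 68.8-fold. For a gene without a listed peak, a difference that missed the authors' threshold and the lack of any peak cannot be told apart here. Of 20 genes of the m6A machinery, Mettl14 among them, 0 were listed, so the deletion was not checked through them.

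The cell type could not be checked from levels, since the table gives none. Of 50 marker genes, 1 had a listed peak. None of the 14 markers of colonic epithelium was listed, nor any of 14 of small-intestinal enterocytes, where Apob and Slc2a5 are best known, of 9 of immune cells or of 4 of adipocytes and hepatocytes. Of 9 stromal markers, the collagen gene Col1a1 was listed, at 1.61 (FDR 0.035) in the authors' deposited table. Collagen genes outside the marker lists went both ways, with Col6a1 at 1.27 and Col8a1 peaks at -2.92, -2.16 and -1.46. These marker lists do not cover every gene of a cell type, and genes of macrophages and other phagocytes outside them were in the table. Of these, 6 genes were picked after their values were seen, and their 8 listed peaks all had the opposite sign to the 7 peaks in the authors' deposited table. Their shared sign thus describes the choice, and 120 of all 195 listed peaks were positive. The complement genes C1qa, C1qb and C1qc stood at 1.92, 2.36 and 2.47, and the chemokine receptor gene Ccr1 at 2.99. Mpeg1, a pore-forming protein of macrophages, had peaks at 1.79 and 2.42, and Ncf4, a subunit of the phagocyte oxidase, at 3.58 and 4.65. The part of a different share of some cell type in the values of the 7 peaks was not tested.

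The listed peaks most like those of the 5 genes were found by the distance between peaks over 3 rank percentiles of the table, for log2 fold change, enrichment and midpoint along the gene. This likeness is over 3 features of a peak and not over samples. Genes under a clone or predicted name (Gm, Rik) were left out of the search. A nearer peak in such a gene is therefore not named here. The closest match of all, at a distance of 2.02 percentile points, was between the near Ppargc1a peak and that of Slc13a1, a sodium-sulfate cotransporter, at -1.03 with 3.08-fold enrichment and a midpoint at 99.3%. The far Ppargc1a peak was nearest to one in Slc16a9, of the monocarboxylate transporter family, at -1.56 with 4.32-fold enrichment. The first Ppara peak and the Apob peak had the same pair of neighbours, Mfap3l at -1.26 and Tppp at -1.01. For the second Ppara peak these were Tsix at -2.85 and Arhgap20 at -1.86. The nearest to Pck1 were the sulfotransferase gene Sult1a1 at -1.74 with 1.59-fold enrichment and the antimicrobial ribonuclease gene Ang4 at -1.32 with 1.58-fold. Slc2a5 had Pcdh17, a protocadherin gene, at -2.43 and Xist at -2.61, both smaller than its own -3.51. The 3 listed Xist peaks lay between -2.83 and -2.43. The lowest of them (chromosome X, 103482065 to 103482544, minus strand) and the Tsix peak (103482057 to 103482535, plus strand) each had an FDR of 1e-17. These peaks cover nearly the same bases on opposite strands, and whether they are separate signals was not tested. Whether the libraries of the genotypes differed in sex was not tested, nor was the part of such a difference in the values of the 5 genes. For the Ppargc1a peaks the second neighbours were Pxylp1 at -0.82 and Arhgap24 at -1.10.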

How the data were processed

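m6A was measured by antibody enrichment in 3 immunoprecipitates and 1 input per genotype. The submitters' processing notes name build mm10 and, with no role for each, R 3.6, HOMER 4.10.0, HISAT2 2.1.0 and Trim Galore 0.6.5. The peak caller and the treatment of replicates are not given in the sources used here. Column names, per the file headers, match those of the R package exomePeak. Enrichment was deposited by the authors as a linear fold of immunoprecipitate over input. The deposited score column holds the authors' p-value for the enrichment, and log10 of it and the deposited log10 p-value differed by at most 0.02. For the genotypes, the authors deposited a log2 fold change with a log10 p-value and a log10 FDR, of which the FDR was made linear here. The largest listed FDR was 0.05.

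Start positions were turned to 1-based mm10. Gene spans came from RefSeq on GRCm38.p6, which is mm10; 164 of 168 names were current symbols, and older names supplied the rest. Ranks, medians and positions were computed in Python 3.11.15 with pandas 2.3.3 and numpy 2.4.6. The position functions were tested on simulated peaks. No test was made: the table has no value of a sample, depth is unknown, and the planned leaving-out of replicates was not run. The named genes are the 5 members, list genes with a listed peak, and the 2 nearest peaks of other genes to each member peak. Genes under a clone or predicted name (Gm, Rik) were left out of the search for nearest peaks. Reg3g, Prlr, Sstr1, Col6a1, Col8a1 and the phagocyte genes were named after their values were seen. The members and lists were chosen with earlier results of these data known. Some items are not reported here, among them 1 gene list and the start region of 1 member.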

Additional observations from a re-analysis of the deposited data

How the results depend on the processing

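An FDR of at most 0.01 left 2 of the 7 peaks, and a minimum size of 2 for the log2 fold change left 2; fewer pass by construction. With the deposited sign turned, the median log2 fold change was 1.24, by construction. The share of negative peaks in the table was 67.7% among peaks with 1 block, against 38.5% among all (exact 95% interval 31.6 to 45.7%, counting error only). All 7 peaks lay nearer the 3′ end than the median of the table by midpoint, but 2 did by distance in nucleotides, and 4 when set against the median of peaks with 1 block, a comparison added after seeing the data. By spliced width 4 were narrower than the median of the table, and by genomic span, which counts introns within peaks of several blocks, 7. By enrichment 4 reached the median of the table, and by the enrichment p-value 1. Without the log2 fold change in the distance, 3 of the 14 nearest peaks were kept. The cause of these changes in position, enrichment and likeness was not tested. No paired analysis was possible because values per sample are not in the table used, and no replicate could be left out for that reason. Without read counts, no limit of depth can be given.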
